A study of Mus musculus with 27 samples.

Results

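The 6 genes described here encode parts of the NADPH oxidase complex and were chosen by name from the 54532 genes of the count table: Cybb, Cyba, Ncf1, Ncf4, Rac2 and Nox4. All 6 were found once each, and all 6 passed the filter on low counts in both experiments, in which 16073 and 15604 genes were tested. The choice used no measured value of these genes, but it was made with earlier results of the same data known.

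The phagocyte NADPH oxidase is a membrane enzyme that passes electrons from NADPH to oxygen and so makes superoxide. Its catalytic core is the heterodimer of CYBB (also called gp91phox or NOX2) and CYBA (p22phox). In a resting cell the organizer NCF1 (p47phox) and NCF4 (p40phox) sit in the cytosol, and on stimulation they move to the core together with a Rac GTPase, RAC2 in most blood-derived cells. Microglia, the macrophages of the brain, carry this enzyme, while NOX4 is a separate catalytic subunit that needs CYBA but not the cytosolic proteins. Protein kinase C phosphorylates NCF1 in the assembly step, and bryostatin is a macrolide that binds the regulatory domain of protein kinase C.

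The samples were mixed glial cultures from the cortex of P3-P6 C57BL6 mice, grown for 14 days and then treated for 24 h before RNA was isolated. The first experiment had 5 groups, all exposed to LPS (a bacterial cell wall component) except the last: LPS+IFNγ+Bryo, LPS+IFNγ, LPS+Bryo, LPS, and NT, the untreated cultures. The second experiment had 4 groups: IL4+Bryo, IL4, Bryo and its own NT cultures. LPS was given at 100 ng/mL, interferon gamma (IFNγ) and interleukin 4 (IL4) at 20 ng/mL each, and bryostatin (Bryo) at 50 nM. Each group had 3 libraries, 27 in all, with 17230058 to 28687281 counted reads per library. The labels number the replicates but do not say whether they were separate cultures or animals, so the p-values rest on how far libraries of 1 group lie apart, and that scatter may be technical. The cells were not sorted, so in each comparison a change in the number of cells of a type and a change in RNA per cell cannot be told apart.

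The 12 microglial marker genes read, among them Csf1r, Cx3cr1 and Tmem119, were detected in all 27 libraries. Of 10 neutrophil markers, Mpo, Elane and S100a9 were at 0 in all libraries and Ly6g had 1 read in all libraries together. The summed level of the 10 was 21.2 to 27.3 CPM in LPS libraries and 10 to 14.5 CPM in the NT libraries of the first experiment, most of it from Csf3r. The 3 of the 10 that passed the filter (Camp, Csf3r and Mmp8) were all called higher with LPS against NT, where 19.5% of all tested genes were higher. Camp and Mmp8 passed the filter only through groups with LPS, so the direction of their calls against NT was largely fixed by the filter. Csf3r and Mmp8 were called lower with LPS+IFNγ against LPS, where 16.8% of all tested genes were lower. Camp had 63 to 95 reads in LPS libraries and 0 to 1 in NT libraries. The untreated libraries labelled replicate 1 stood apart from the other untreated libraries of their own experiment. Sox10, an oligodendrocyte lineage factor, had 0.161 CPM (counts per 1000000 reads, with TMM-scaled library sizes) in NT replicate 1 of the first experiment, against 33.4 and 30.1 CPM in its replicates 2 and 3. In the second experiment Sox10 had 39.1 CPM in NT replicate 1, against 0.284 and 0.228 CPM in replicates 2 and 3. NT replicate 1 of the first experiment correlated at 0.995 with NT replicates 2 and 3 of the second experiment over log2(CPM + 1) of genes averaging 1 CPM or more, and at 0.963 and 0.964 with those of its own. NT replicate 1 of the second experiment correlated at 0.979 and 0.968 with NT replicates 2 and 3 of the first, and at 0.951 and 0.94 with those of its own. Each thus resembled the NT libraries of the other experiment more than its own, and whether the pair was exchanged cannot be told from the labels. Each comparison with NT cultures rests on this doubt. The labels were kept as given, and results that use untreated libraries are also given without these libraries where that changed a call.

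Promoter windows from RefSeq (GRCm38.p6, 250 bases before to 50 bases after the annotated start) were held for 4 of the 6 genes; Ncf4 and Rac2 had no entry. The windows of Cybb, Ncf1 and Nox4 are printed because the first 2 belong to genes that LPS raised and the third to the gene that moved apart from them, and capitals mark every match to the motifs searched. The motifs, read on both strands, were the PU.1 core GAGGAA, the interferon gamma activation site TTCNNNGAA, the interferon-stimulated response element (ISRE) and the AP-1 site TGACTCA. The windows are Cybb at chrX:9469275-9469574 on the minus strand, Ncf1 at chr5:134229576-134229875 on the minus strand and Nox4 at chr7:87246399-87246698 on the plus strand.
Cybb: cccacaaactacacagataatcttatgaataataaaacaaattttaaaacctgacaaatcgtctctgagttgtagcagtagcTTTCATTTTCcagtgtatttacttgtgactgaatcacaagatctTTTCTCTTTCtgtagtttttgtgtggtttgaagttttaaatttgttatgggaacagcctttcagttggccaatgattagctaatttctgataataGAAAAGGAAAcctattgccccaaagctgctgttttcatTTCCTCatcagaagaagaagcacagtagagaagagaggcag
Ncf1: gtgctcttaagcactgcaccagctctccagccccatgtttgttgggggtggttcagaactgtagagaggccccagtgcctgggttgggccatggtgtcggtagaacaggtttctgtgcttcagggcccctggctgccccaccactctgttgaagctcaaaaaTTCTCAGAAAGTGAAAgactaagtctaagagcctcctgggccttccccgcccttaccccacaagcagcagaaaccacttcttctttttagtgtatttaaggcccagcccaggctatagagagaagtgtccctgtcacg
Nox4: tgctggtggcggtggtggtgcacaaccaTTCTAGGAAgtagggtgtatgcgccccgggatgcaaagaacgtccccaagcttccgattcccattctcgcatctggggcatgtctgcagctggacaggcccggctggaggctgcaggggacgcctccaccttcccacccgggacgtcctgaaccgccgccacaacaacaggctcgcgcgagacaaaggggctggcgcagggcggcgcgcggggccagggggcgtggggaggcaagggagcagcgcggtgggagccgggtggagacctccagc
The Cybb window held 3 matches to the ISRE, a motif present in 3.44% of the 32851 promoter windows of the same length, and 1 match to the PU.1 core, present in 28.3%. The Ncf1 window held 1 match to TTCNNNGAA, present in 8.3% of windows, which overlapped by 3 bases its 1 match to the ISRE. The Nox4 window held 1 match to TTCNNNGAA. The Cyba window, on chromosome 8, held none of the 4 motifs, and TGACTCA, present in 5.2% of windows, was in none of the 4 windows. A match is a description of these letters and does not show binding.

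In mm10 coordinates, Cybb lies on chromosome X at 9435252 to 9487771, Cyba on chromosome 8 at 122424776 to 122432930, Ncf1 on chromosome 5 at 134220053 to 134229625 and Nox4 on chromosome 7 at 87246096 to 87398710. Ncf4 (78244801 to 78262580) and Rac2 (78559167 to 78572783) both lie on chromosome 15, 297 kb apart. The printed windows of Cybb and Nox4 lie inside the spans given here. Their RefSeq starts are thus not the outer starts of the deposited genes. Of the 6 genes only Ncf1 shared exonic bases with another annotated gene: 408 of its 3663 exonic bases overlapped Gtf2ird2 on the opposite strand, and the libraries were unstranded, so reads from those bases cannot be told apart by strand.

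Levels between genes are compared in the deposited FPKM, which divides counts by gene length. In untreated cultures of the first experiment Cyba stood highest at 61.5 ± 1.16 FPKM, Cybb and Ncf1 were both at 13.8 FPKM (SD 1.01 and 0.794), Rac2 was at 5.58 ± 0.97, Ncf4 at 3.84 ± 0.51 and Nox4 at 0.545 ± 0.0422 (SD, n = 3 each). The core subunits were thus unequal, with a Cybb to Cyba ratio of FPKM of 0.225 ± 0.0207 in NT cultures. In LPS cultures that ratio was 0.744 ± 0.0394, against 0.225 in NT cultures, and its ranges did not overlap. In the second experiment it was 0.123 ± 0.0312 with IL4+Bryo, 0.129 ± 0.0103 with IL4, 0.19 ± 0.0815 with Bryo and 0.183 ± 0.0888 in NT cultures. Nox4 stayed lowest of the 6 in every group, between 0.317 FPKM with LPS+IFNγ and 1.03 FPKM with LPS+Bryo. Among Rac genes, the ubiquitous Rac1 was the more abundant: the Rac2 to Rac1 ratio of FPKM was 0.46 ± 0.0186 in LPS cultures and 0.0746 ± 0.0151 in NT cultures.

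**Figure D1:**
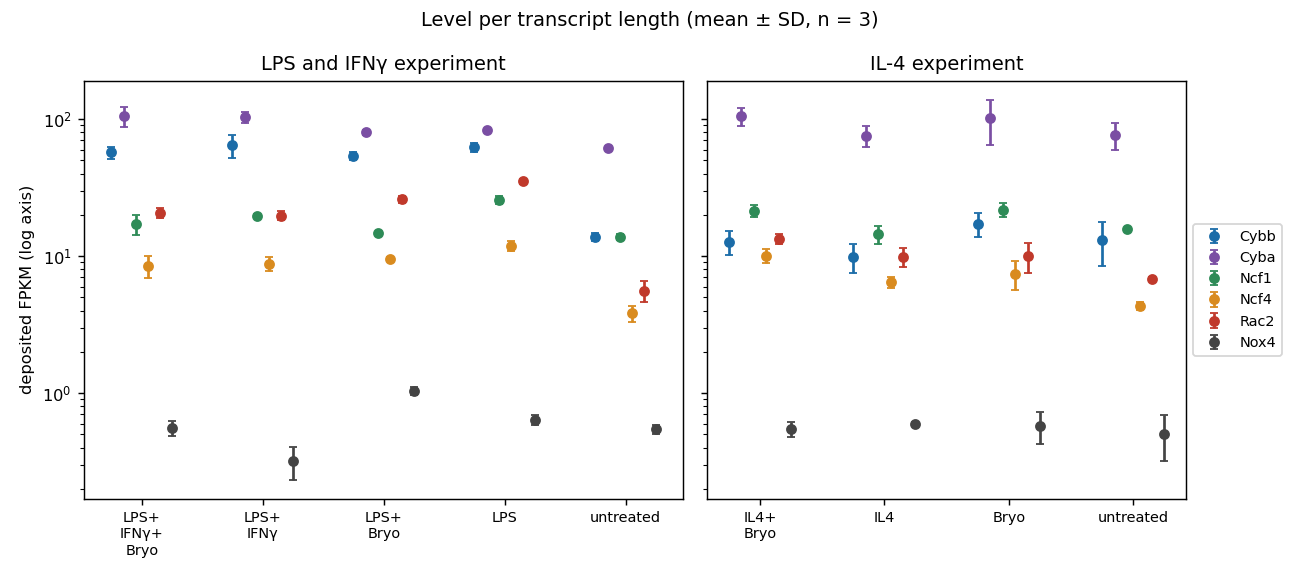
Deposited FPKM (log axis) of the 6 genes in each group of the 2 experiments; points are means and bars SD of 3 libraries. Cyba is highest and Nox4 lowest in every group, and Cybb, at 13.8 FPKM in NT cultures, stands at 62.3 FPKM with LPS.

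LPS raised the phagocyte oxidase genes. Relative to NT, 5 of the 6 genes were called higher and none lower, where 38.4% of all tested genes were called, 19.5% higher and 18.8% lower; the median log2 fold change was 1.28 over the 6 genes and -0.01 over all genes tested. The calls use an adjusted p below 0.05 over all tested genes from edgeR's quasi-likelihood test. Rac2, the GTPase, changed most: it had 107, 110 and 101 CPM in LPS libraries and 19.6, 17 and 13.5 CPM in NT libraries (log2 fold change 2.67 ± 0.12 SE, adjusted p = 2.1e-11). Every LPS library was above every NT library. Cybb, the catalytic subunit, had 370, 324 and 364 CPM in LPS libraries, against 77.8, 71.7 and 82.9 CPM in NT libraries (2.19 ± 0.13, adjusted p = 6.0e-10), also with no overlap. Its partner Cyba moved far less, with 85.6, 82.9 and 85.9 CPM in LPS libraries and 63.1, 62 and 59.9 CPM in NT libraries (0.46 ± 0.10, adjusted p = 0.00175). The groups did not overlap, but in a fit of all 27 libraries the adjusted p of Cyba was 0.0803.

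The cytosolic subunits rose too. Ncf4 had 22.9, 21.8 and 25.4 CPM in LPS libraries, against 8.69, 6.57 and 7.2 CPM in NT libraries (1.64 ± 0.14, adjusted p = 1.1e-07). Ncf1 had 96.2, 84.7 and 94.4 CPM in LPS libraries and 52.6, 46 and 48.1 CPM in NT libraries (0.91 ± 0.10, adjusted p = 1.7e-06). Neither gene's groups overlapped. Nox4, the constitutive homologue, had 4.79, 5.75 and 5.3 CPM in LPS libraries and 4.83, 4.05 and 4.48 CPM in NT libraries, which overlapped, and was not called (0.25 ± 0.18, adjusted p = 0.305). The summed level of the 12 microglial markers went the other way: it was 904 to 973 CPM in LPS libraries, against 1266 to 1386 CPM in NT libraries, with 4 markers called higher and 8 lower. Fibroblast markers summed to 5201 to 6202 CPM in LPS libraries and 1461 to 3395 CPM in NT libraries, with 5 of 7 called higher, and endothelial and mural markers to 226 to 264 CPM in LPS libraries and 1141 to 1392 CPM in NT libraries, with 2 of 7 tested called higher and 5 lower. The part of these lists in the result was not tested. All 12 microglial markers were themselves called with LPS, so a level per CPM of markers shifts with them and is not a level per cell. Per 1000 CPM of the microglial markers, Rac2 had 114 ± 7.1 CPM in LPS libraries and 12.5 ± 2.88 in NT libraries. Cybb had 378 ± 18.4 in LPS libraries and 57.8 ± 5.04 in NT libraries.

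**Figure D2:**
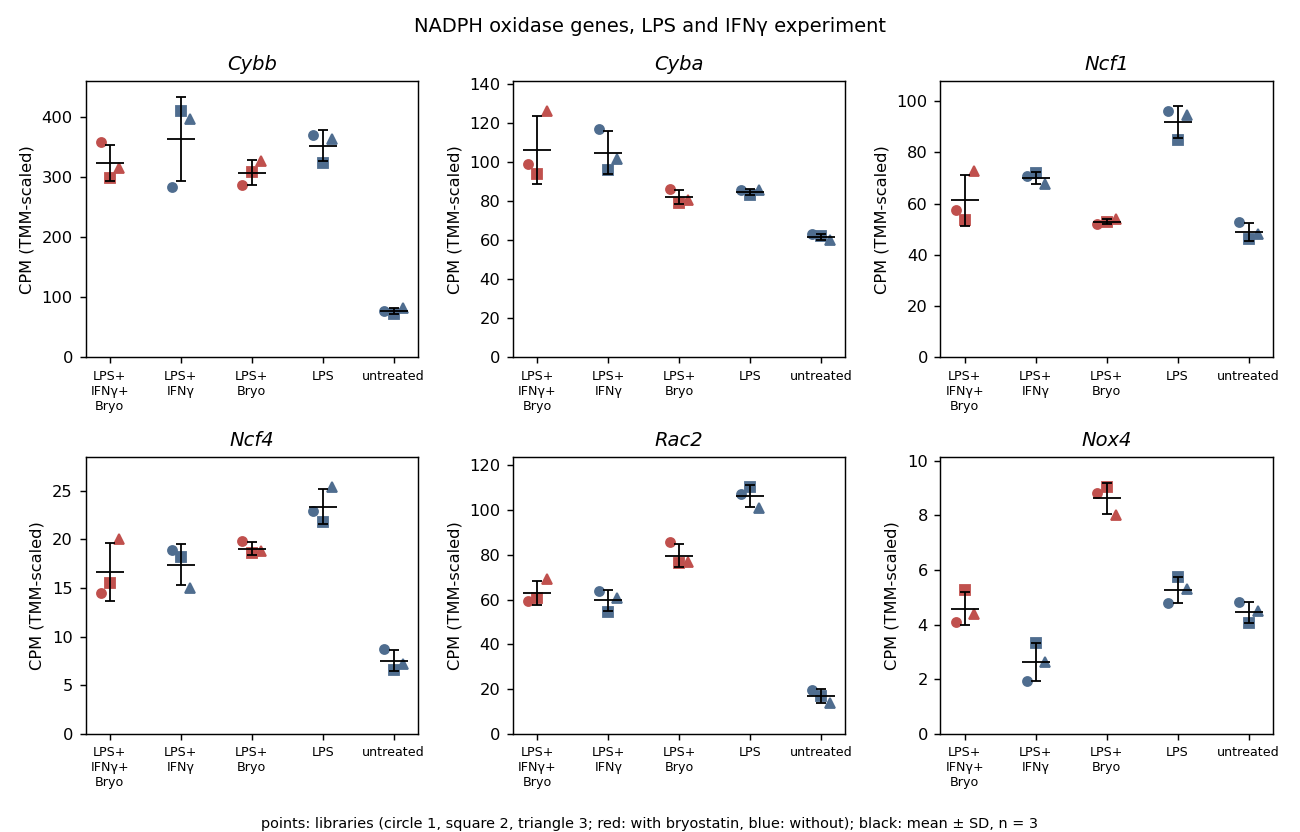
CPM (TMM-scaled) of each gene in the 15 libraries of the first experiment; symbols are libraries, black marks the mean and SD of 3, and red marks bryostatin. Cybb, Ncf4 and Rac2 in LPS libraries lie above every NT library, Ncf1 is lower with LPS+Bryo (53 CPM) than with LPS (91.8 CPM), and Nox4 is highest with LPS+Bryo (8.62 CPM).

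With IFNγ added to LPS the 6 genes split. Against NT cultures all 6 were called, 5 higher and Nox4 lower, where 58.1% of all tested genes were called, 29.5% higher and 28.6% lower: the log2 fold changes were 2.23 for Cybb, 1.84 for Rac2, 1.22 for Ncf4, 0.77 for Cyba, 0.52 for Ncf1 and -0.76 for Nox4. This comparison shares its NT libraries with the one for LPS alone. Against LPS, 1 gene was called higher and 4 lower, where 36% of all tested genes were called, 19.2% higher and 16.8% lower. Rac2 had 63.9, 54.6 and 60.6 CPM in LPS+IFNγ libraries, against 107, 110 and 101 CPM in LPS libraries (-0.83 ± 0.11, adjusted p = 1.9e-05). Nox4 had 1.94, 3.31 and 2.61 CPM in LPS+IFNγ libraries, from 30 to 53 reads each, against 4.79, 5.75 and 5.3 CPM in LPS libraries (-1.01 ± 0.19, adjusted p = 0.00063). Both genes were lower in every LPS+IFNγ library than in any LPS library.

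Ncf1 and Ncf4 were also lower with IFNγ. Ncf1 had 70.6, 72 and 67.6 CPM in LPS+IFNγ libraries and 96.2, 84.7 and 94.4 CPM in LPS libraries (-0.39 ± 0.10, adjusted p = 0.0054). Ncf4 had 18.9, 18.2 and 15 CPM in LPS+IFNγ libraries, against 22.9, 21.8 and 25.4 CPM in LPS libraries (-0.43 ± 0.14, adjusted p = 0.0219). Without LPS replicate 3 or without LPS+IFNγ replicate 3 the adjusted p of Ncf4 was 0.0857 or 0.11. Cyba was the gene called higher, with 117, 96.1 and 102 CPM in LPS+IFNγ libraries and 85.6, 82.9 and 85.9 CPM in LPS libraries (0.31 ± 0.10, adjusted p = 0.0257). Leaving out any 1 LPS library or LPS+IFNγ replicate 1 ended the Cyba call, with an adjusted p of 0.058 to 0.113, and in the fit of all 27 libraries it was 0.26. Cybb had 284, 411 and 397 CPM in LPS+IFNγ libraries and 370, 324 and 364 CPM in LPS libraries, a difference of 0.05 with a 95% interval of -0.21 to 0.30. The microglial marker sum was 694 to 755 CPM in LPS+IFNγ libraries and 904 to 973 CPM in LPS libraries, so it was lower in the same direction as Rac2, Ncf1 and Ncf4, as was the neutrophil marker sum, at 10.6 to 11.8 CPM in LPS+IFNγ libraries and 21.2 to 27.3 CPM in LPS libraries. Per 1000 CPM of markers, Rac2 was at 83.3 ± 4.82 with LPS+IFNγ and 114 ± 7.1 with LPS, while Ncf1 was at 97.8 ± 4.67 with LPS+IFNγ and 98.3 ± 4.4 with LPS. The part of the markers in the result was not tested.

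Bryostatin added to LPS lowered Ncf1 and Rac2 and raised Nox4. These 3 of the 6 genes were called, where 6.89% of all tested genes were called, 3.35% higher and 3.55% lower. Ncf1, the subunit that protein kinase C phosphorylates, had 52.2, 52.7 and 54.1 CPM in LPS+Bryo libraries, against 96.2, 84.7 and 94.4 CPM in LPS libraries (-0.79 ± 0.10, adjusted p = 0.00011). The LPS+Bryo values lay within 2 CPM of each other and close to the 46 to 52.6 CPM of NT libraries, and the call held in each of the 12 alternatives run. Nox4 had 8.82, 9.05 and 8 CPM in LPS+Bryo libraries and 4.79, 5.75 and 5.3 CPM in LPS libraries (0.71 ± 0.18, adjusted p = 0.0226). Rac2 had 85.5, 76.4 and 76.8 CPM in LPS+Bryo libraries and 107, 110 and 101 CPM in LPS libraries (-0.42 ± 0.11, adjusted p = 0.0284). Neither gene's groups overlapped.

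The Nox4 and Rac2 calls depended on which libraries were in the fit. Nox4 lost its call without any 1 LPS library or without LPS+Bryo replicate 1 or 2, at an adjusted p of 0.0554 to 0.115. Rac2 lost its call without any 1 LPS library or without LPS+Bryo replicate 2 or 3, at an adjusted p of 0.0568 to 0.121; neither gene changed direction. In the fit of all 27 libraries the adjusted p was 0.0649 for Nox4 and 0.0888 for Rac2. Ncf4 had 19.9, 18.6 and 18.7 CPM in LPS+Bryo libraries, all below the 21.8 to 25.4 CPM of LPS libraries, but was not called (-0.29 ± 0.13, adjusted p = 0.241). Cybb differed by -0.20 (95% interval -0.45 to 0.06) and Cyba by -0.05 (-0.26 to 0.17), neither called. In a fit of these 2 groups alone Cybb and Ncf4 were called as well, at an adjusted p of 0.0243 and 0.0207. The microglial marker sum was 705 to 768 CPM in LPS+Bryo libraries, against 904 to 973 CPM in LPS libraries, with 4 of 12 markers called lower and none higher. Per 1000 CPM of markers, Ncf1 was at 67.9 to 76.7 in LPS+Bryo libraries and 93.7 to 102 in LPS libraries, which did not overlap, while Rac2 was at 104 to 111 with LPS+Bryo and 109 to 122 with LPS, which did. The part of the markers in the result was not tested for any of the 6 genes.

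With IFNγ present as well, Nox4 was the 1 gene of the 6 called in LPS+IFNγ+Bryo against LPS+IFNγ, where 3.38% of all tested genes were called, 1.8% higher and 1.58% lower. Nox4 had 4.09, 5.25 and 4.4 CPM in LPS+IFNγ+Bryo libraries and 1.94, 3.31 and 2.61 CPM in LPS+IFNγ libraries (0.80 ± 0.19, adjusted p = 0.0317). The groups did not overlap, but without LPS+IFNγ+Bryo replicate 1, 2 or 3 or LPS+IFNγ replicate 1 or 3 the adjusted p of Nox4 was 0.051 to 0.143, and in a fit of these 2 groups alone it was 0.0953 and in the fit of all 27 libraries 0.074. Ncf1 had 57.6, 53.8 and 72.6 CPM in LPS+IFNγ+Bryo libraries and 70.6, 72 and 67.6 CPM in LPS+IFNγ libraries, which overlapped (-0.19 ± 0.10, adjusted p = 0.379). Rac2 differed by 0.08 (95% interval -0.16 to 0.31) Cybb by -0.17 (-0.42 to 0.08), Ncf4 by -0.06 (-0.36 to 0.23) and Cyba by 0.02 (-0.19 to 0.23). The microglial marker sum was 583 to 686 CPM in LPS+IFNγ+Bryo libraries and 694 to 755 CPM in LPS+IFNγ libraries.

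The difference between the bryostatin changes with and without IFNγ was tested as an interaction. It was called for 0.118% of all tested genes, 0.0684% positive and 0.0498% negative, and for none of the 6. Over all genes 1021 had an unadjusted p below 0.05. For Ncf1 it was 0.60 ± 0.14 on the log2 scale (adjusted p = 0.162) and for Rac2 0.49 ± 0.15 (adjusted p = 0.399), both positive. With IFNγ the estimate for Ncf1 was a smaller reduction, while that for Rac2 was no reduction (0.08, not called). DESeq2 called Ncf1 there at an adjusted p of 0.015, as did edgeR with no filter at 0.0186, and a fit of only these 4 groups called Ncf1 at 0.0396 and Rac2 at 0.047, so the result depended on the fit. In LPS+IFNγ+Bryo against LPS+Bryo, where 36.9% of all tested genes were called, 18.9% higher and 17.9% lower, Cyba was higher by 0.37 ± 0.10 (adjusted p = 0.0081), while Nox4 fell by 0.91 and Rac2 fell by 0.34 on the log2 scale (adjusted p = 0.00078 and 0.0221). Cybb (0.07), Ncf1 (0.21) and Ncf4 (-0.20) were not called there. In the fit of all 27 libraries the adjusted p was 0.137 for Cyba and 0.0786 for Rac2. Rac2 was also not called without LPS+IFNγ+Bryo replicate 1 or 2 or LPS+Bryo replicate 1, at an adjusted p of 0.0776 to 0.093, and Ncf1 was called higher at 0.0374 without LPS+IFNγ+Bryo replicate 2.

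**Figure D3:**
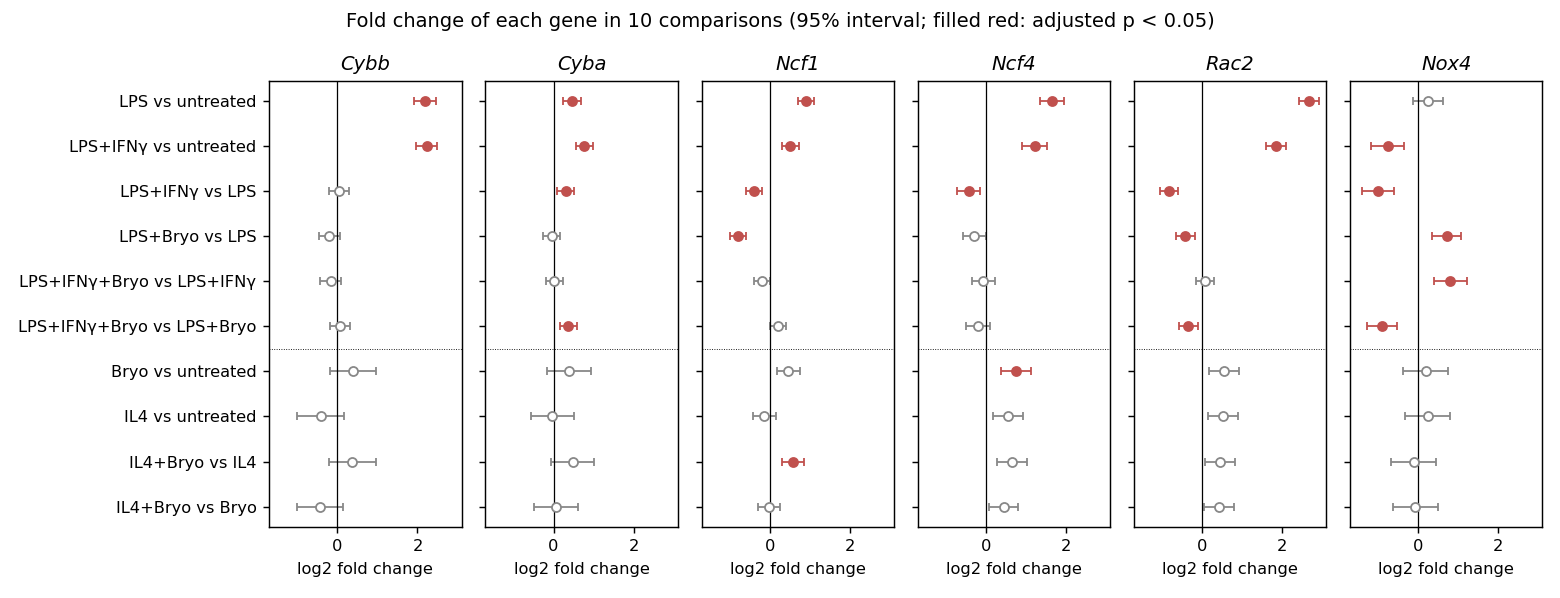
Log2 fold change of each gene, first-named group over second, in 10 comparisons with 95% intervals; filled red points have an adjusted p below 0.05, and the dotted line parts the experiments. Ncf1 lies at -0.79 for LPS+Bryo against LPS and at 0.58 for IL4+Bryo against IL4, on opposite sides of 0.

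In order of mean CPM in the first experiment, Rac2 stood highest with LPS (106), then LPS+Bryo (79.6), LPS+IFNγ+Bryo (62.9), LPS+IFNγ (59.7) and NT (16.7), and of these neighbours only the third and the fourth overlapped. Ncf1 was highest with LPS, and the next 4 groups (LPS+IFNγ, LPS+IFNγ+Bryo, LPS+Bryo and NT) overlapped each its neighbour. The 4 stimulated groups of Cybb, between 308 and 364 CPM in the mean, overlapped each its neighbour, and all lay above NT. Cyba fell into 3 levels that did not overlap: both IFNγ groups (105 and 106 CPM), LPS with and without bryostatin (82.1 and 84.8 CPM), and NT (61.7 CPM). The Cyba call for LPS+IFNγ against LPS was lost in 5 of its 12 alternatives. For none of these orders was the share of all tested genes with groups apart in this way counted. Nox4 had its own order, with LPS+Bryo (8.62 CPM) above all and LPS+IFNγ (2.62 CPM) below all other groups.

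Bryostatin alone raised 1 of the 6 genes by the test. In Bryo against NT cultures of the second experiment Ncf4 was the 1 gene of the 6 called, where 3.62% of all tested genes were called, 2.11% higher and 1.51% lower. It had 11.7, 19 and 15.9 CPM in Bryo libraries, against 8.71, 9.57 and 9.23 CPM in NT libraries (0.76 ± 0.17, adjusted p = 0.0343). The Ncf4 call was lost without Bryo replicate 2 or 3 or any 1 NT library, at an adjusted p of 0.0545 to 0.0983, among them 0.08 without NT replicate 1, which stood apart, and it was 0.306 in a fit of these 2 groups alone. Ncf1 had 73.7, 92.5 and 83 CPM in Bryo libraries and 60.8, 58.8 and 61.1 CPM in NT libraries (0.46 ± 0.13, adjusted p = 0.0751). Rac2 had 28, 41.8 and 27.1 CPM in Bryo libraries and 23.3, 22 and 21.4 CPM in NT libraries (0.54 ± 0.17, adjusted p = 0.112). Neither gene was called although its groups did not overlap; DESeq2 called both, at an adjusted p of 0.0151 for Ncf1 and 0.0432 for Rac2.

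The core subunits varied between the libraries of 1 group in the second experiment. Cybb had 105, 82.8 and 124 CPM in Bryo libraries and 52.4, 78.9 and 107 CPM in NT libraries, and Cyba had 81.1, 155 and 92.1 CPM in Bryo libraries and 107, 71.9 and 72.6 CPM in NT libraries. Both genes' groups overlapped and neither was called, with 95% intervals of -0.19 to 0.97 for Cybb and -0.16 to 0.93 for Cyba. Bryo replicate 2 and NT replicate 1 had the lowest Cybb and the highest Cyba of their groups. Nox4 had 4.68, 4 and 6.57 CPM in Bryo libraries and 3.43, 3.66 and 6.27 CPM in NT libraries (95% interval -0.37 to 0.75).

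With IL4 alone none of the 6 genes was called, where 0.583% of all tested genes were called, 0.5% higher and 0.0833% lower, and 1666 genes had an unadjusted p below 0.05. Ncf4 had 12.1, 13.9 and 14.5 CPM in IL4 libraries, all above the 8.71 to 9.57 CPM of NT libraries (0.56 ± 0.17, adjusted p = 0.357), and Rac2 had 26.8, 31.8 and 36.8 CPM in IL4 libraries, all above the 21.4 to 23.3 CPM of NT libraries (0.52 ± 0.17, adjusted p = 0.412). Cybb had 43.8, 64.2 and 70.9 CPM in IL4 libraries and 52.4, 78.9 and 107 CPM in NT libraries, which overlapped (-0.41 ± 0.27, adjusted p = 0.45). Ncf1 differed by -0.13 (95% interval -0.41 to 0.15), Cyba by -0.03 (-0.57 to 0.51) and Nox4 by 0.23 (-0.32 to 0.79). DESeq2 also called none of the 6 there.

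Bryostatin given with IL4 raised Ncf1, the 1 gene of the 6 called in IL4+Bryo against IL4, where 4.13% of all tested genes were called, 2.7% higher and 1.42% lower. Ncf1 had 74.2, 82.4 and 90 CPM in IL4+Bryo libraries, against 45.7, 56.8 and 62.4 CPM in IL4 libraries (0.58 ± 0.13, adjusted p = 0.0292). The groups did not overlap; the call was lost without any 1 IL4+Bryo library or without IL4 replicate 1 or 2, at an adjusted p of 0.0515 to 0.139. Ncf4 had 18.6, 23.1 and 21.9 CPM in IL4+Bryo libraries and 12.1, 13.9 and 14.5 CPM in IL4 libraries (0.65 ± 0.17, adjusted p = 0.0524), and Rac2 had 39, 45.6 and 45.3 CPM in IL4+Bryo libraries and 26.8, 31.8 and 36.8 CPM in IL4 libraries (0.44 ± 0.17, adjusted p = 0.203). Neither was called, although no library of one group reached the other. DESeq2 called Ncf4 at an adjusted p of 0.0091, and the fit with the replicate number as a block called it at 0.0243. Cyba had 96.9, 129.8 and 116 CPM in IL4+Bryo libraries, all above the 65.8 to 90.9 CPM of IL4 libraries, and was not called either (0.48 ± 0.25, adjusted p = 0.38). Cybb differed by 0.37 (95% interval -0.21 to 0.96) and Nox4 by -0.12 (-0.67 to 0.44), both with overlapping groups.

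The microglial marker sum was higher in the same direction, at 1790 to 2163 CPM in IL4+Bryo libraries against 1121 to 1566 CPM in IL4 libraries. Of the 12 markers 3 were called higher and 1 lower there, where 4.13% of all tested genes were called. The sum was 1616 to 2201 CPM in Bryo libraries and 1541 to 1664 CPM in NT libraries, which overlapped. In that comparison 1 marker was called higher and none lower, where 3.62% of all tested genes were called. Per 1000 CPM of markers, Ncf1 was at 41.5 to 42.9 with IL4+Bryo and 38.5 to 40.8 with IL4, and Rac2 at 20.9 to 23.7 with IL4+Bryo and 21.6 to 23.9 with IL4. Markers of astrocytes, the most abundant cells of such cultures, summed to 7954 to 8990 CPM with IL4+Bryo and 10988 to 11753 CPM with IL4, and to 6590 to 6852 CPM with LPS+Bryo and 8496 to 9006 CPM with LPS. The part of either marker list in these results was not tested. In IL4+Bryo against Bryo, where 0.91% of all tested genes were called, 0.775% higher and 0.135% lower, and 732 had an unadjusted p below 0.05, none of the 6 genes was called by edgeR or by DESeq2. The interaction of bryostatin and IL4 was called by edgeR for 0% of all tested genes, with 327 at an unadjusted p below 0.05, and by DESeq2 for 4 genes, none of them among the 6.

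**Figure D4:**
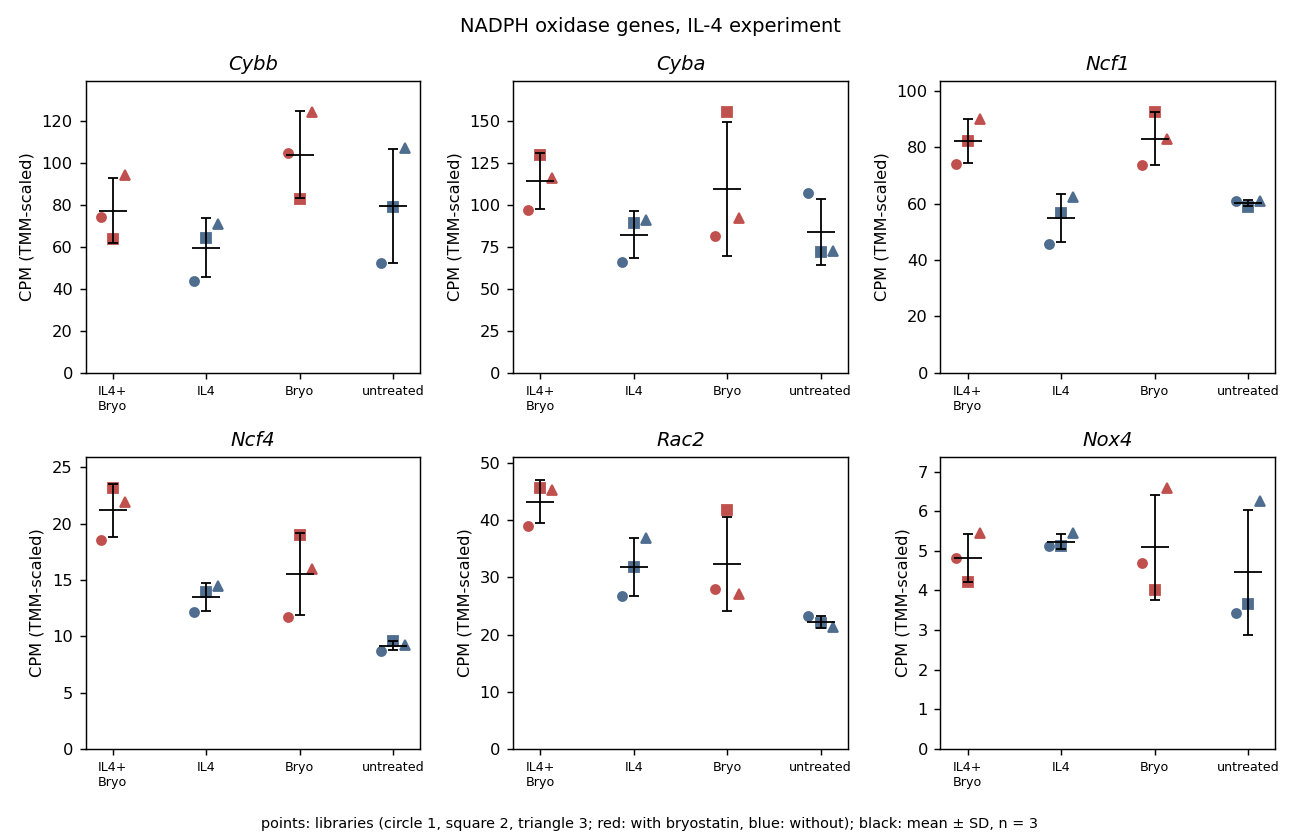
CPM (TMM-scaled) of each gene in the 12 libraries of the second experiment; symbols are libraries, black marks the mean and SD of 3, and red marks bryostatin. Ncf1 lies at 74.2 to 90 CPM with IL4+Bryo and at 45.7 to 62.4 CPM with IL4, while Cybb and Cyba spread widely within groups.

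**Figure D5:**
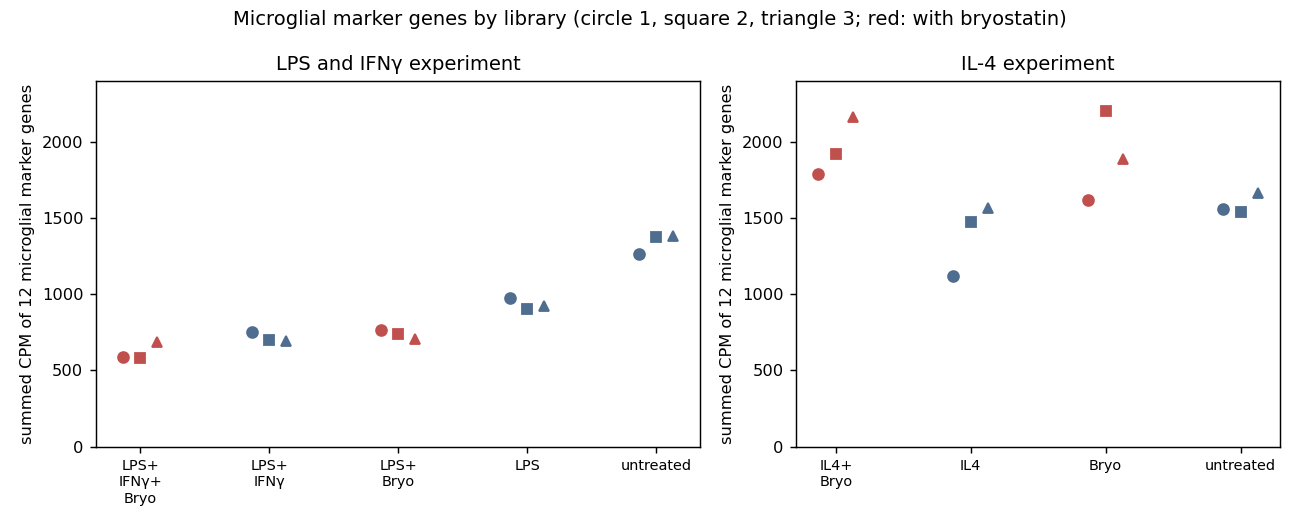
Summed CPM of 12 microglial marker genes in each library of both experiments; red marks bryostatin. The sum is 904 to 973 with LPS and 1266 to 1386 in NT libraries, and with bryostatin it lies lower beside LPS and higher beside IL4.

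The bryostatin change of Ncf1, Ncf4 and Rac2 was thus negative beside LPS and positive beside IL4 or alone. Several of these changes were not called. Beside LPS+IFNγ the change was -0.19 for Ncf1, -0.06 for Ncf4 and 0.08 for Rac2, none called, and it was not set against the second experiment. For LPS without IFNγ, the difference of the within-experiment changes was tested in 1 fit of all 27 libraries, a test chosen after the values were seen. The bryostatin change with LPS minus that with IL4 was -1.38 ± 0.16 for Ncf1 (adjusted p = 2.2e-05), -0.95 ± 0.21 for Ncf4 (adjusted p = 0.0144) and -0.87 ± 0.20 for Rac2 (adjusted p = 0.0178), where 2.69% of all tested genes were called. Leaving out 1 library ended the Rac2 call in 5 of 12 cases (IL4+Bryo replicate 2 or 3, IL4 replicate 1, LPS+Bryo replicate 2 or 3, adjusted p = 0.052 to 0.0711) and the Ncf4 call in 1 (IL4 replicate 1, 0.0546). For Cybb, Cyba and Nox4 it was -0.58, -0.53 and 0.82, not called. The change with LPS minus that of bryostatin alone was -1.28 for Ncf1, -1.08 for Ncf4 and -0.98 for Rac2 (adjusted p = 7.3e-05, 0.0077 and 0.0098), where 1.87% were called. The 2 experiments differ in all that was done in them apart, and the stimulus and the experiment cannot be told apart.

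In the second experiment Ncf1, Ncf4 and Rac2 had steps between groups that did not overlap. The share of all tested genes with such a step was not counted. Ncf1 fell into 2 levels that did not overlap, Bryo (83.1 CPM) and IL4+Bryo (82.2 CPM) above NT (60.2 CPM) and IL4 (55 CPM). For Ncf4 (21.2 CPM with IL4+Bryo, 15.5 with Bryo, 13.5 with IL4 and 9.17 in NT) and for Rac2 (43.3, 32.3, 31.8 and 22.2 CPM in the same groups) only the lowest step, down to NT, had no overlap. All neighbouring groups overlapped for Cybb, Cyba and Nox4. Rac2 and Ncf4 had the most alike profiles of the 15 pairs of these genes in the second experiment, with a root mean square difference of 0.164 of centred log2 CPM over 12 libraries. In the first experiment that pair differed by 0.39 over 15 libraries, and the smallest difference was that of Cyba and Ncf1, at 0.324. The largest was that of Cybb and Nox4, at 1.02. The measure is also small for genes that vary little. About their own means Cyba and Ncf1 had root mean squares of 0.301 and 0.336, so 0.324 does not show a shared profile. Cybb and Rac2 differed by 0.375, against 0.859 and 0.926 about their own means.

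By the same measure, other genes near each of the 6 were sought. The candidates were protein-coding genes averaging 5 CPM or more, 11500 in the first experiment. The nearest of so many is close by their number alone, so these differences cannot be set against those between the 6. In the first experiment Cybb ran closest to Eif2ak2, the interferon-induced kinase PKR (0.139), then to Pik3ap1 (0.146) and Ikbke (0.186). Ncf4 ran closest to Syk (0.151), Sdc4 (0.161) and Fcer1g (0.17), where Syk is a tyrosine kinase and Fcer1g an adaptor of immune receptors. Rac2 ran closest to Milr1 (0.204), Ctps (0.223) and Hcls1 (0.232), and Ncf1 to Rhou (0.147), C1rl (0.162) and Eva1c (0.173). Cyba, which varied least, ran closest to Tmed1 (0.0758) and the proteasome genes Psma1 (0.0786) and Psmd4 (0.0794), and Nox4 to the transporter gene Abcg2 (0.171), Ppp1r13l (0.228) and Phf21b (0.265). In the second experiment the nearest gene was Gcnt1 for Cybb (0.179), Renbp for Cyba (0.0891), Socs3 for Ncf1 (0.0745), Lat2 for Ncf4 (0.124), Six4 for Nox4 (0.117) and Tgfbi for Rac2 (0.0912). None of the 3 nearest genes of any of the 6 was the same in both experiments. These are descriptions over libraries that share groups, with no test.

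Of 14 further oxidase subunits and partners, 7 passed the filter and 7 did not. Nox1, Nox3, Noxa1, Duox1, Duox2, Duoxa1 and Duoxa2, the parts of other oxidases, were the 7 left out, and none exceeded 0.323 CPM in any library. Cybc1, a chaperone of the CYBB and CYBA heterodimer, had 47, 50.2 and 50.8 CPM in LPS libraries and 23, 31.8 and 28.5 CPM in NT libraries (0.83, adjusted p = 1.8e-05). Cybc1 rose again when IFNγ was added to LPS, to 84, 76.8 and 80.2 CPM in LPS+IFNγ libraries (0.70, adjusted p = 9.9e-05).

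Hvcn1, the proton channel that offsets the charge moved by the oxidase, had 11.6, 11.2 and 13.1 CPM in LPS+IFNγ libraries and 7.93, 5.89 and 8.19 CPM in LPS libraries (0.71, adjusted p = 0.0025). Bryostatin with LPS lowered Hvcn1, to 5.49, 5.01 and 4.16 CPM in LPS+Bryo libraries (-0.58, adjusted p = 0.0457), a call lost in 7 of its 12 alternatives. Rac1 differed little, with 0.04 for LPS against NT (not called) and -0.19 for LPS+IFNγ against LPS (adjusted p = 0.0291, lost in 5 alternatives). Rap1a (0.01), Poldip2 (-0.10) and Noxo1 (0.27) were not called between LPS and NT.

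Genes read as context were grouped in lists. Of 11 tested transcription factors of phagocyte oxidase genes, 9 were higher and 2 lower with LPS, where 38.4% of all tested genes were called. Among them were Spi1, which encodes PU.1 (57.2 CPM with LPS, 28.4 CPM in NT, log2 fold change 1.01), Irf1 (2.27) and Cebpb (2.39), while Cebpa (-2.12) and Irf8 (-0.52) fell. With IFNγ added to LPS, 8 were higher and 1 lower, against 36% of all tested genes called, and Irf1 (3.56) and Irf8 (3.02), both interferon-response factors, rose and Spi1 fell by 0.41. With bryostatin added to LPS, Irf1 fell by 0.61 and Spi1 fell by 0.37 (adjusted p = 0.0013 and 0.0228). No factor of the list was higher, where 3.35% of all tested genes were higher and 3.55% lower. The Spi1 call with bryostatin was lost in 5 of its 12 alternatives.

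Of 22 genes that signal to oxidase assembly, 11 were higher and 4 lower with LPS, where 19.5% of all tested genes were higher and 18.8% lower, among them Arhgdib (1.88), Syk (1.72) and the phospholipase gene Pla2g4a (1.61) against Prkca (-1.19), a protein kinase C isoform. With IFNγ added, 3 were higher and 9 lower, where 19.2% of all tested genes were higher and 16.8% lower, and the largest decreases were in Prkcb (-1.63), Pik3cg (-1.52) and Itgam (-1.32). With bryostatin added to LPS none was higher and 7 were lower, led by Pik3cg (-0.58), Itgb2 (-0.43) and Dock2 (-0.43), where 3.35% of all tested genes were higher and 3.55% lower. Of 12 alternatives, 7 ended the call of Pik3cg, 7 that of Dock2 and 3 that of Itgb2, with an adjusted p of 0.0509 to 0.22. Without LPS the calls in this list had the other direction: 6 were higher and none lower with Bryo against NT, led by Itgam (1.27), Pik3cd (0.81) and Itgb2 (0.70), and 5 higher and none lower with IL4+Bryo against IL4, again led by Itgam (1.39) and Pik3cd (0.96). Over all tested genes 2.11% were higher and 1.51% lower with Bryo against NT, and 2.7% higher and 1.42% lower with IL4+Bryo against IL4. In Bryo against NT 7 of 13 alternatives ended the call of Itgb2 (adjusted p up to 0.279, and 0.0988 without NT replicate 1), 3 that of Pik3cd and 1 that of Itgam. Itgam, one chain of an adhesion receptor of phagocytes, is also 1 of the 12 microglial markers. With IL4 alone Prkcd, another protein kinase C isoform, was the 1 gene of the list called (1.19, adjusted p = 0.00093), where 0.583% of all tested genes were called. In a fit of these 2 groups alone the adjusted p of Prkcd was 0.0545.

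The genes that remove superoxide and peroxide moved in both directions. With LPS 6 of 17 were higher and 4 lower, where 38.4% of all tested genes were called: the mitochondrial superoxide dismutase gene Sod2 rose by 2.48 and Sod3 by 2.28, while Prdx6 fell by 1.63 and catalase (Cat) fell by 0.61. With IFNγ added 9 were higher and 2 lower, where 36% of all tested genes were called, led by Hmox1 (4.13), which encodes heme oxygenase 1, Txnrd1 (2.40) and Prdx1 (2.31). With bryostatin added to LPS Sod2 fell by 0.62 and Gpx3 rose by 1.08. No other gene of the list was called, where 6.89% of all tested genes were called. Of 9 genes of NADPH supply, 5 were higher and 1 lower with IFNγ added to LPS, against the same 36% over all tested genes, led by the pentose phosphate pathway genes Pgd (1.32), Taldo1 (1.14) and G6pdx (0.87), in the comparison in which Ncf1, Ncf4 and Rac2 were lower. With LPS alone 2 were higher and 3 lower, against 38.4%. Of 13 alternatives, 7 ended the call of Pgd, 7 that of Me1, 6 that of Idh1 and 3 that of Tkt, while the call of Nadk held in all. None of the 9 was called in the 4 bryostatin comparisons, where 3.38% to 6.89% of all tested genes were called.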

How the data were processed

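RNA from 27 mixed glial cultures was sequenced as unstranded polyA libraries, per the labels' protocols. The authors deposited whole-number counts per gene and FPKM per gene in 1 table each; fastp, STAR, featureCounts and the build mm10 are named in the submitters' processing notes, with no versions. In every library the deposited FPKM equalled the count divided by gene length and library total, times a constant of 0.901 to 1.19. Counts were fitted per experiment with edgeR 4.0.16 in R 4.3.3 (filterByExpr by group, TMM factors, robust quasi-likelihood F-test, groups as the only term), Benjamini-Hochberg adjustment over all tested genes and a call at an adjusted p below 0.05; SE is the log2 fold change over the root of F. CPM are TMM-scaled. The procedure was tested on simulated data. DESeq2 1.42.0 and other settings were alternatives. Totals of 17230058 to 28687281 reads put 3 reads at 0.105 to 0.174 CPM, counting error only. The 6 genes and the lists of other genes were chosen with earlier results of these data known. Named genes were the 6, all tested subunits, up to 3 called genes per list, direction and comparison, and the 3 nearest profiles; Spi1 with LPS was added after its value was seen, and some genes that the rule names are not reported here. Replicate numbers did not pair the libraries: same-numbered deviations correlated at -0.276 to 0.300 in the first experiment, with 3 of 30 pairs over 0.1, and at -0.504 to 0.534 in the second, with 6 of 18 pairs over 0.1 (10 of 36 pairs with other numbers). Promoter sequences came from RefSeq, GRCm38.p6, and exon overlaps from GENCODE M21, whose gene coordinates for the 6 genes equal those deposited.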

Additional observations from a re-analysis of the deposited data

Results flagged for a closer look

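The bryostatin change with LPS differed from that with IL4 or alone for 3 of the 6 genes by a test of the difference itself, chosen after the values were seen. The change with LPS+IFNγ, called for none of these 3 genes, was not part of that test. With LPS minus with IL4, it was -1.38 for Ncf1, -0.95 for Ncf4 and -0.87 for Rac2 on the log2 scale (edgeR, all 27 libraries, adjusted p = 2.2e-05, 0.0144 and 0.0178). Leaving out 1 library ended the Rac2 call in 5 of 12 cases and the Ncf4 call in 1. With LPS minus bryostatin alone, it was -1.28 for Ncf1, -1.08 for Ncf4 and -0.98 for Rac2. In every LPS+Bryo library these genes were below every LPS library, and in every IL4+Bryo library above every IL4 library. The test was chosen after these same values were seen, and the share of all genes that separate so was not counted. The microglial marker sum moved the same way, to 705 to 768 CPM with LPS+Bryo against 904 to 973 CPM with LPS. With IL4+Bryo the sum was 1790 to 2163 CPM, against 1121 to 1566 CPM with IL4. Per 1000 CPM of these markers, Ncf1 was at 72 with LPS+Bryo and 98.3 with LPS, and at 42 with IL4+Bryo and 39.7 with IL4. In the same order of groups Ncf4 was at 25.9, 25.1, 10.8 and 9.83, and Rac2 at 108, 114, 22.1 and 23. In both comparisons the ranges per marker overlapped for Ncf4 and Rac2 and did not for Ncf1. The part of the markers in the result was not tested.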

How the results depend on the processing

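Of 1128 alternative values for the 6 genes over 84 results, 1061 kept their direction and their side of the threshold, 50 lost a call, 17 gained one and none of those called changed direction; 62 of the 84 results had the same call throughout. Values near 0 that were called in neither setting are counted as kept; over these genes and the list genes, 94 of them changed sign. Of 2330 alternative values for list genes, 133 lost a call, 16 gained one and none reversed. With each library left out in turn, the 6 genes gave 5 calls for LPS against NT, 6 for LPS+IFNγ against NT, 3 to 5 for LPS+IFNγ against LPS, 1 to 2 for LPS+Bryo against LPS, 0 to 1 for LPS+IFNγ+Bryo against LPS+IFNγ, 2 to 3 for LPS+IFNγ+Bryo against LPS+Bryo, 0 to 1 for Bryo against NT and for IL4+Bryo against IL4, and 1 to 3 for the bryostatin change with LPS minus that with IL4, where Rac2 fell to an adjusted p of 0.052 to 0.0711 in 5 cases and Ncf4 to 0.0546 without IL4 replicate 1. Over all genes the same removals gave 588 to 689 calls for LPS+Bryo against LPS (1108 with all libraries), 242 to 434 for LPS+IFNγ+Bryo against LPS+IFNγ (543), 4 to 19 for the IFNγ interaction (19), 188 to 824 for Bryo against NT (565), 172 to 371 for IL4+Bryo against IL4 (644), 68 to 119 for IL4+Bryo against Bryo (142), 262 to 420 for the bryostatin change with LPS minus that with IL4 (447) and 200 to 426 for that with LPS minus bryostatin alone (312).

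DESeq2 called 879 genes for LPS+IFNγ+Bryo against LPS+IFNγ, 95 for the IFNγ interaction (1 of the 6), 1337 for Bryo against NT (3 of the 6), 223 for IL4 against NT (167 higher and 56 lower, against 78 and 13 by edgeR), 1213 for IL4+Bryo against IL4 (2 of the 6), 223 for IL4+Bryo against Bryo, 4 for the IL4 interaction, and 681 and 509 for the 2 differences between experiments. With no filter the IFNγ interaction gave 55 calls (1 of the 6). All 27 libraries in 1 fit gave 7 for that interaction, 1548 for Bryo against NT (3 of the 6), 224 for IL4 against NT, 1325 for IL4+Bryo against IL4 (2 of the 6), 233 for IL4+Bryo against Bryo and 5 for the IL4 interaction; of the 6 genes it called 1 for LPS+Bryo against LPS, 0 for LPS+IFNγ+Bryo against LPS+IFNγ and 1 for LPS+IFNγ+Bryo against LPS+Bryo. Only the groups compared gave 3354 for LPS+Bryo against LPS (5 of the 6), 112 for the IFNγ interaction (2 of the 6), 9 for Bryo against NT (0 of the 6), 41 for IL4 against NT, 2703 for IL4+Bryo against IL4 (4 of the 6) and 0 of the 6 for LPS+IFNγ+Bryo against LPS+IFNγ. Without both untreated libraries labelled replicate 1, Bryo against NT called 0 of the 6. With the replicate number as a block, IL4+Bryo against IL4 called 2 of the 6 (Ncf4 added, adjusted p = 0.0243), and no other count of calls moved by over 1.5 times. The cause was not tested.

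As TMM-scaled counts per kilobase in place of FPKM, Cyba was 81.6 with LPS and 59.3 in NT of the first experiment, Ncf1 16.4 and Rac2 7.16 in NT of the second, and Nox4 0.618 with IL4, each moved by more than 1 SD. Depth limits Nox4 most, with 30 to 175 reads per library.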
